A study of Rattus norvegicus with 15 samples.

Results

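Fragments of the methionine tRNA with anticodon CAT (CAU in RNA letters) were followed in left heart ventricles of Sprague-Dawley rats. The members are the 28 rows of the deposited table whose name starts with tRF-Met-CAT, out of 714 tRNA-derived small RNAs (tsRNAs) listed, of which 665 carry the class name tRF (tRNA-derived fragment). They were measured in 15 libraries, 1 per rat, in 3 groups of 5. Control rats were untreated, a second group was made ischemic with isoproterenol, and the last was pretreated by caloric restriction and then made ischemic with the drug (called restricted from here on). No group was restricted without the drug, and the labels state no dose, duration, age or sex. All groups share the tissue, the strain and a chemical pretreatment of total RNA that strips base modifications which block library making. The table lists tsRNAs alone, so the labelled tissue was not checked against cell markers here.

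Methionine tRNAs read the codon AUG. The cytosol uses an initiator tRNA, which starts protein synthesis on the ribosome, and an elongator tRNA for methionine inside the chain, while mitochondria have a single methionine tRNA for both tasks. All of them carry the anticodon CAU, so the name Met-CAT does not tell which tRNA a fragment came from. Fragments of tRNA arise when nucleases cut the mature or precursor molecule, and stress raises such cutting in many tissues. Isoproterenol is a beta-adrenergic agonist that overloads and injures the heart muscle. RefSeq lists 13 rat genes of the name Trnam-cau in the assembly GRCr8. The sequence, the parent gene and the position within the tRNA of each fragment were not used here, and members of nearly the same sequence are uncertain as separate species.

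Levels are given as deposited in CPM, that is, per 1000000 reads of each library's divisor. This divisor, the library total recovered from the steps between CPM values, ran from 106082 to 1128887 reads, and 1 read was worth 0.886 to 9.43 CPM. Control replicate 4 had the highest total and isoproterenol replicate 3 the lowest. The 28 members together held 392 to 1328 reads a library and 22 to 26 of them had at least 1 read in each library. The typical member was shallow, with a median of 2 to 8 reads across libraries, and 19 of the 28 had fewer than 100 reads over all 15 libraries. A value of 0 reads allows up to 2.66 CPM in control replicate 4 and up to 28.3 CPM in isoproterenol replicate 3, taking 3 reads as the limit, for counting error only. The listed tsRNAs made up 28.6% ± 4.77 of the total in control, 61.6% ± 13.6 in isoproterenol and 50.4% ± 13.6 in restricted libraries (SD, n = 5 each). Their levels under other scalings are given beside the results. All 28 members passed the filter on low values (at least 1 CPM in at least 5 libraries).

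A trio of fragments led the methionine pool when all libraries were pooled. tRF-Met-CAT-035 held 39.4% of all member reads, tRF-Met-CAT-036 35.1% and tRF-Met-CAT-037 3.78%. By mean CPM over the 15 libraries they ranked 29, 37 and 172 among the 714 tsRNAs. tRF-Met-CAT-016 (3.51%), tRF-Met-CAT-013 (3.33%) and tRF-Met-CAT-017 (2.65%) followed, and each of the other 22 members held 0.105% to 1.45%. The place of tRF-Met-CAT-037 in this order depends on the group. Its pooled reads were 84 in control, where tRF-Met-CAT-013 had 203 and tRF-Met-CAT-016 had 146. Under isoproterenol it had 142 reads against 183 of tRF-Met-CAT-017 and 162 of tRF-Met-CAT-016, while in restricted libraries its 208 reads came after tRF-Met-CAT-035 and tRF-Met-CAT-036 alone. The median member averaged 14.3 CPM over the libraries, against 26.8 CPM for the median of all listed tsRNAs.

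As a group the members held 0.496% ± 0.219 (SD, n = 5) of the listed reads in controls. The isoproterenol libraries held 0.592% ± 0.496 and the restricted ones 1.09% ± 0.643. The share ran from 0.158% (exact 95% interval 0.144 to 0.173) in control replicate 4 to 0.720% (0.664 to 0.779) in control replicate 1. Isoproterenol libraries ran from 0.198% (0.179 to 0.218) to 1.36% (1.26 to 1.46). Restricted libraries ran from 0.372% (0.349 to 0.395) to 1.88% (1.78 to 1.99), so the 3 groups overlap. Against the library total the members averaged 1429 ± 662 CPM in controls, against 3221 ± 2225 CPM with isoproterenol and 4835 ± 2011 CPM with restriction before it. Every restricted library (2503 to 7276 CPM) lay above every control (399 to 2251 CPM), while the isoproterenol libraries (1455 to 6731 CPM) overlapped both. No test was run on these sums, since the members were chosen with earlier results known. In bulk tissue a lower level cannot be told apart from fewer cells of a type or less RNA per cell.

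Within the pool the makeup differed between groups, a comparison in which the library total cancels. The trio held 65.6% ± 8.74 of the member reads in controls (n = 5 in each group). Isoproterenol libraries averaged 73.8% ± 12.3 and restricted libraries 87.2% ± 2.46. Restricted libraries ran from 83.6% (exact 95% interval 81.0 to 86.1) to 89.9% (88.0 to 91.5) and controls from 53.1% (48.4 to 57.8) to 73.8% (70.3 to 77.1), with no overlap. Isoproterenol libraries spread across both, from 55.9% (52.8 to 59.0) in replicate 5 to 89.5% (87.0 to 91.6) in replicate 3. Without tRF-Met-CAT-037, a sum chosen after seeing the data, tRF-Met-CAT-035 and tRF-Met-CAT-036 held 62.4% ± 8.81 in controls, 69.4% ± 12.6 with isoproterenol and 83.4% ± 2.86 in restricted libraries. Their lowest restricted share, 79.2% (76.3 to 81.9), was still above their highest control share, 71.2% (67.6 to 74.7). tRF-Met-CAT-013 went the other way: it held 8.05% ± 3.09 of member reads in controls, 2.99% ± 0.923 with isoproterenol and 1.37% ± 0.684 in the restricted libraries. Its lowest control share was 4.55% (3.05 to 6.51) and its highest isoproterenol share 4.46% (3.27 to 5.92), a gap well inside the counting intervals. Its highest restricted share was 2.11% (1.41 to 3.03). tRF-Met-CAT-016 was at 5.69% ± 1.54, 4.69% ± 3.08 and 1.71% ± 0.571, with restricted libraries (1.01% to 2.33%) below all controls (4.13% to 7.36%) and isoproterenol libraries on both sides. These shares are described without a test, and a share falls when the rest of the pool rises.

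The 2 leading fragments kept close to each other. The ratio of tRF-Met-CAT-035 to tRF-Met-CAT-036 reads averaged 1.27 ± 0.203 in control, 0.963 ± 0.252 in isoproterenol and 1.16 ± 0.112 in restricted libraries. It ran from 0.671 in isoproterenol replicate 4 to 1.52 in control replicate 1, and the 3 groups overlap. tRF-Met-CAT-037 was lower, at 0.117 ± 0.0243, 0.130 ± 0.0448 and 0.0979 ± 0.0159 reads per read of tRF-Met-CAT-036.

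Isoproterenol was compared with control to ask how ischemia changed these fragments. By limma on log2(CPM + 1), with adjustment over all 707 tsRNAs tested, 7 of the 28 members had an adjusted p under 0.05, 5 higher and 2 lower. Over all tested tsRNAs 47.9% did, 35.5% higher and 12.4% lower. tRF-Met-CAT-008, tRF-Met-CAT-009, tRF-Met-CAT-036, tRF-Met-CAT-037 and tRF-Met-CAT-078 rose, and tRF-Met-CAT-012 and tRF-Met-CAT-052 fell. In 3 members (10.7%) the groups did not overlap, against 27.4% of all tested tsRNAs. The median log2 fold change was 0.63 over the members and 1.26 over all tested tsRNAs, and 10 of the 28 lay above the latter. When libraries were scaled by the median of ratios, which moved the median of all tsRNAs to 0.15, the members' median turned to -0.37 and the calls to 1 higher and 7 lower. Of all tsRNAs 16.1% were then higher and 19.6% lower. With the listed tsRNAs scaled to the same total, 1 member was higher and 5 lower, against 14.0% and 16.9% of all. With the log2 library total as a covariate, 1 was higher and 4 lower, against 23.2% and 14.3% of all. Without control replicate 4 the count of calls was 3, and without control replicate 2, isoproterenol replicate 1 or isoproterenol replicate 3 it was 4. The count over all tsRNAs moved too, from 251 higher and 88 lower of 707. It was 189 and 84 of 707 without control replicate 4, and 220 and 78 of 707 without control replicate 2. Without isoproterenol replicate 1 it was 245 and 76 of 707, and without replicate 3 it was 195 and 84 of 706.

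tRF-Met-CAT-008 had the largest log2(CPM + 1) fold change of the members called higher, from a level near the limit of detection. It was at 3.66, 2.36, 3.71, 0 and 0 CPM in control replicates 1 to 5. In isoproterenol ventricles it was at 18.6, 7.81, 56.6, 54.8 and 46.6 CPM. All 5 isoproterenol libraries lay above all controls. Isoproterenol replicate 2 did so with 1 read, the count also found in control replicates 1, 2 and 3, because its library total was lower. Its 7.81 CPM is below the 23.4 CPM that a value of 0 reads allows in that library. The means were 1.95 ± 1.86 and 36.9 ± 22.3 CPM (n = 5 each), a ratio of means of 18.9. The fitted difference in mean log2(CPM + 1) was 3.69 with SE 0.86 (limma adjusted p = 0.000477). That is 2.43 more than the median tsRNA. Pooled over the groups these are 54 reads against 3, a ratio of 33.1 per library total (exact 95% counting interval 10.7 to 166). The rise passed in each of the 15 fits that left out a library (limma adjusted p from 0.000204 to 0.00261), and with median-of-ratios scaling (3.15, limma adjusted p = 0.00697). Of the 15 fits, the 5 without a restricted library could not move the log2 fold change, only its SE and p.

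The other called rises were smaller on that scale. tRF-Met-CAT-009 was at 43.9, 4.71, 26.0, 2.66 and 21.0 CPM in the 5 controls. Isoproterenol libraries held 44.5, 31.3, 66.0, 140.0 and 50.5 CPM. Only replicate 2 of them fell within the control range, and the log2 fold change was 2.07 (SE 0.72, limma adjusted p = 0.0163). The call was lost without control replicate 2 (1.74, limma adjusted p = 0.0612), control replicate 4 (1.58, 0.0707) or isoproterenol replicate 4 (1.75, 0.0579), and with median-of-ratios scaling (0.94, 0.301). tRF-Met-CAT-078 held 7.32, 2.36, 7.42, 0.886 and 10.5 CPM in controls. Under isoproterenol the values were 22.3, 15.6, 18.9, 12.2 and 19.4 CPM. The groups did not overlap. Isoproterenol replicates 2 and 3 lay above the controls with 2 reads each, the count also found in control replicates 1 and 3. Their CPM is below the 23.4 and 28.3 CPM that a value of 0 reads allows there. The log2 fold change was 1.73 (SE 0.72, limma adjusted p = 0.0442). This call rests on few reads, 24 against 10 pooled, and was lost without control replicate 2 or 4, isoproterenol replicate 1, 2 or 3, or restricted replicate 5 (limma adjusted p from 0.0504 to 0.146, log2 fold change from 1.35 to 1.77). It was also lost with median-of-ratios scaling (0.75, limma adjusted p = 0.309).

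Among the trio, tRF-Met-CAT-036 and tRF-Met-CAT-037 rose in this comparison. tRF-Met-CAT-036 was at 629.6, 497, 356, 88.6 and 472 CPM in controls. In isoproterenol ventricles it stood at 542, 1492, 2828, 767 and 441 CPM. Isoproterenol replicates 2, 3 and 4 were above every control and replicates 1 and 5 within their range. The means were 409 ± 204 and 1214 ± 991 CPM, and the difference in mean log2(CPM + 1) was 1.47 with SE 0.56 (limma adjusted p = 0.0274). The call was lost without control replicate 4 (0.99, limma adjusted p = 0.126) and without isoproterenol replicate 2 (1.31, 0.064) or 3 (1.08, 0.119). tRF-Met-CAT-037 was at 73.2, 40.1, 51.9, 11.5 and 52.4 CPM in controls. The isoproterenol libraries had 78.0, 148, 283, 79.1 and 89.4 CPM. These groups did not overlap, though isoproterenol replicate 1 (21 reads) lay close to control replicate 1 (20 reads). For tRF-Met-CAT-037 the difference in mean log2(CPM + 1) was 1.56 with SE 0.60 (limma adjusted p = 0.0284). It was not called without control replicate 2 (1.57, limma adjusted p = 0.0504), control replicate 4 (1.14, 0.102), isoproterenol replicate 2 (1.48, 0.0528) or isoproterenol replicate 3 (1.25, 0.0942). With median-of-ratios scaling tRF-Met-CAT-036 was at 0.23 and tRF-Met-CAT-037 at 0.34, and neither passed (limma adjusted p = 0.637 and 0.435).

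tRF-Met-CAT-035, the most abundant member, did not pass against control. Its values were 955, 599, 489.8, 112 and 459 CPM in controls. In isoproterenol ventricles they were 405, 1617, 2913, 514 and 566 CPM. Replicates 2 and 3 alone lay above the control range. Its difference in mean log2(CPM + 1) of 1.05 (SE 0.57, limma adjusted p = 0.117) stood at -0.20 from that of the median tsRNA, and turned to -0.19 with median-of-ratios scaling (limma adjusted p = 0.732).

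tRF-Met-CAT-012 and tRF-Met-CAT-052 fell. tRF-Met-CAT-012 was at 40.3, 33.0, 22.3, 11.5 and 21.0 CPM in controls. Under isoproterenol it was at 3.71, 7.81, 9.43, 0 and 13.6 CPM. All but replicate 5 were below the lowest control, on 1, 1, 1 and 0 reads. A value of 0 reads allows up to 23.4 CPM in replicate 2 and 28.3 CPM in replicate 3, above that control. The log2 fold change was -2.09 (SE 0.87, limma adjusted p = 0.0435), or -3.35 from the median tsRNA. It lost its call without control replicate 1, 2, 3 or 5 or isoproterenol replicate 1 or 4 (limma adjusted p from 0.0581 to 0.162, log2 fold change from -2.14 to -1.46) and with a pseudocount of 0.5 (-2.33, 0.0656). tRF-Met-CAT-052 was at 32.9, 16.5, 37.1, 11.5 and 36.7 CPM in controls. Isoproterenol libraries were at 0, 54.7, 18.9, 9.13 and 0 CPM. Replicates 1, 4 and 5, with 0, 3 and 0 reads, were below every control and replicate 2, with 7, above them. Its log2 fold change was -1.98 (SE 0.82, limma adjusted p = 0.0424). This call was lost without control replicate 1, 3 or 5, isoproterenol replicate 1 or 5, or restricted replicate 4 (limma adjusted p from 0.0511 to 0.18, log2 fold change from -1.98 to -1.31), with only the groups compared in the fit (0.0743) and with a pseudocount of 5 (-1.11, 0.0882). Both falls passed with median-of-ratios scaling (-3.28 and -3.25, limma adjusted p = 0.00272 and 0.00209).

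tRF-Met-CAT-014 was lower in 4 of 5 isoproterenol libraries. Controls were at 29.3, 23.6, 22.3, 17.7 and 26.2 CPM. Isoproterenol libraries were at 3.71, 7.81, 0, 3.04 and 54.4 CPM. Replicate 5 stood above all controls and the other 4 below all of them by CPM. Those 4 held 1, 1, 0 and 1 reads. A value of 0 reads allows up to 28.3 CPM in replicate 3, so its place below the controls is not certain. The log2 fold change of -1.98 did not pass (SE 0.89, limma adjusted p = 0.0601). Without isoproterenol replicate 5 it was -2.77 and passed (limma adjusted p = 0.00841). It also passed with median-of-ratios scaling (-2.92, limma adjusted p = 0.0147), with the listed tsRNAs scaled to the same total (-2.95, 0.0065) and with a pseudocount of 5 (-1.23, 0.0494).

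The restricted group was compared with control to see these fragments after restriction and isoproterenol together. This comparison shares the control libraries with the one above. Again 7 members passed, 5 higher and 2 lower, against 58.4% of all 707 tsRNAs tested, 47.7% higher and 10.7% lower. The trio, tRF-Met-CAT-032 and tRF-Met-CAT-078 rose, and tRF-Met-CAT-012 and tRF-Met-CAT-014 fell. In 5 members (17.9%) the groups did not overlap, against 40.3% of all. The median log2 fold change was 0.63 over the members and 1.60 over all tested tsRNAs, and 8 of the 28 lay above the latter. With median-of-ratios scaling, which moved the median of all tsRNAs to 0.24, the members' median turned to -0.68 and the calls to 0 higher and 4 lower. Of all tsRNAs 15.1% were then higher and 20.6% lower. With the listed tsRNAs scaled to the same total, 2 members were higher and 2 lower, against 26.4% and 14.3% of all.

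The trio had its highest group means here. tRF-Met-CAT-035 was at 3278, 1051, 2617, 1328 and 2635 CPM in restricted ventricles, all above the highest control (955 CPM). tRF-Met-CAT-036 was at 2954, 1029, 2328, 1089 and 2006 CPM, and tRF-Met-CAT-037 at 256, 88.0, 243, 134 and 179.9 CPM, also above every control. Their group means were 2182 ± 949, 1881 ± 825 and 180.3 ± 71.4 CPM, against 523 ± 303, 409 ± 204 and 45.8 ± 22.6 CPM in control. The log2 fold changes were 2.22 (SE 0.57, limma adjusted p = 0.00138), 2.33 (SE 0.56, 0.000689) and 2.06 (SE 0.60, 0.00357). Relative to the median tsRNA they stood at 0.62, 0.73 and 0.46. Each passed in all 15 fits that left out a library (limma adjusted p up to 0.0144). Fits without an isoproterenol library could not move these log2 fold changes. With median-of-ratios scaling they were at 0.59, 0.71 and 0.47 and none passed (limma adjusted p = 0.21, 0.107 and 0.248). edgeR with TMM factors on the recovered reads put them at 0.55, 0.68 and 0.47, which did not pass either (edgeR adjusted p = 0.242, 0.121 and 0.236). With the log2 library total as a covariate all 3 passed (1.27, 1.43 and 1.32, limma adjusted p = 0.00763, 0.0024 and 0.0058).

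tRF-Met-CAT-032 had the largest log2(CPM + 1) fold change of the members called higher after restriction. Controls were at 14.6, 11.8, 18.6, 2.66 and 13.1 CPM. Restricted libraries were at 97.7, 67.9, 40.5, 39.8 and 103 CPM. The groups did not overlap, and the log2 fold change was 2.51 (SE 0.68, limma adjusted p = 0.00217), or 0.91 from the median tsRNA. The isoproterenol libraries, at 26.0, 62.5, 47.1, 18.3 and 7.77 CPM, overlapped both other groups, and their own difference from control, 1.22, did not pass (limma adjusted p = 0.128). Without isoproterenol replicate 5 that difference was 1.63 and passed (limma adjusted p = 0.0369). The rise after restriction was called by edgeR with TMM factors (1.08, edgeR adjusted p = 0.0406) and missed with median-of-ratios scaling (1.00, limma adjusted p = 0.0962). tRF-Met-CAT-078 was at 30.5, 10.1, 31.5, 18.1 and 27.0 CPM in restricted ventricles. All but replicate 2 were above every control, and the difference in mean log2(CPM + 1) was 2.04 with SE 0.72 (limma adjusted p = 0.0146). It did not pass without control replicate 4 (1.66, limma adjusted p = 0.0596) or with median-of-ratios scaling (0.69, 0.321).

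Falls were again few and low in reads. tRF-Met-CAT-014 was at 6.10, 0, 9.01, 10.9 and 0 CPM in restricted ventricles, all below the lowest control (17.7 CPM). Each of these libraries held 0 to 3 reads of it. The log2 fold change was -2.67 (SE 0.89, limma adjusted p = 0.00958), or -4.27 from the median tsRNA, and it passed in all 15 fits that left out a library. Fits without an isoproterenol library could not move this fold change. With the log2 library total as a covariate it was -2.29 and did not pass (limma adjusted p = 0.0593). tRF-Met-CAT-012 was at 18.3, 0, 13.5, 7.24 and 0 CPM, below every control in replicates 2, 4 and 5. Its log2 fold change was -2.38 (SE 0.87, limma adjusted p = 0.0177), and it did not pass without restricted replicate 2 (-1.83, 0.0682) or 5 (-1.83, 0.0749).

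The pair tRF-Met-CAT-013 and tRF-Met-CAT-016, of middle abundance, did not pass in any comparison on log2(CPM + 1) without a covariate. tRF-Met-CAT-013 was at 102, 91.9, 182, 38.1 and 115 CPM in controls. It was at 44.5, 125, 151, 39.6 and 87.5 CPM in isoproterenol ventricles. In restricted ventricles it was at 128, 27.7, 126, 47.0 and 18.0 CPM. The groups overlap, with log2 fold changes of -0.27 and -0.84 against control (limma adjusted p = 0.742 and 0.248). Scaled by the median of ratios, tRF-Met-CAT-013 was lower in both (-1.50 and -2.44, limma adjusted p = 0.0127 and 0.000221), as it was by edgeR with TMM factors (-1.56 and -2.23, edgeR adjusted p = 0.00965 and 0.000611). With the log2 library total as a covariate it was lower after restriction (-1.48, limma adjusted p = 0.0202) and did not pass under isoproterenol (limma adjusted p = 0.137).

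tRF-Met-CAT-016 was at 106, 63.6, 108, 29.2 and 73.4 CPM in controls. It was at 96.5, 164, 84.8, 48.7 and 175 CPM under isoproterenol. In restricted ventricles it was at 109.9, 25.2, 139.6, 68.8 and 76.5 CPM. These groups overlap too, with log2 fold changes of 0.57 and 0.08 against control (limma adjusted p = 0.433 and 0.925). For restricted ventricles the value turned to -1.53 and passed with median-of-ratios scaling (limma adjusted p = 0.0109).

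The title of the series asks what caloric restriction before isoproterenol changed, so restricted ventricles were compared with isoproterenol ventricles. By limma 0 of the 28 members passed, against 0% of all 707 tsRNAs in either direction. Among the members 6 had an unadjusted p under 0.05, against 116 of all 707. The groups overlapped in all 28 members, while in 1.70% of all tsRNAs they did not. By edgeR with TMM factors 0 of the 9 members it tested passed, as did 0 of all 347 tsRNAs it tested, with 4 of the members and 82 of all at an unadjusted p under 0.05. DESeq2 called 1 of the 19 to which it gave an adjusted p, tRF-Met-CAT-017, lower (-2.13, DESeq2 adjusted p = 0.0405), and 7.13% of all 477 tsRNAs to which it gave one. With the log2 library total as a covariate, tRF-Met-CAT-035 (1.29, limma adjusted p = 0.0291) and tRF-Met-CAT-052 (2.58, 0.0301) were higher, 2 of 28 members, where 6.08% of all tsRNAs were called. The members' median log2 fold change was 0.17, against 0.44 over all tested tsRNAs.

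The smallest p was that of tRF-Met-CAT-052. It stood at 36.6, 27.7, 31.5, 25.3 and 54.0 CPM in restricted ventricles, within the range of the isoproterenol group (0 to 54.7 CPM), which held both the highest and the lowest values. The log2 fold change was 2.43 (SE 0.82, limma adjusted p = 0.204). tRF-Met-CAT-008 was at 0, 17.6, 18.0, 7.24 and 4.50 CPM, with replicates 1, 4 and 5 below every isoproterenol library (log2 fold change -2.14, SE 0.86, limma adjusted p = 0.237). Against control it was at 1.55, which did not pass (limma adjusted p = 0.111) but did without restricted replicate 1 (2.25, 0.0227). tRF-Met-CAT-011 was the rarest member, with 12 reads in all. It had 0, 0, 1, 0 and 0 reads in control, 6, 0, 1, 1 and 2 reads in isoproterenol and 0, 1, 0, 0 and 0 reads in restricted replicates 1 to 5. The 1 pooled read in restricted against 10 in isoproterenol ventricles is a 9.52-fold lower count per library total (exact 95% counting interval 1.35 to 413), and the log2 fold change of -2.08 did not pass (limma adjusted p = 0.29). Isoproterenol against control gave 2.00, which did not pass (limma adjusted p = 0.0861) but did without isoproterenol replicate 2 (2.61, 0.0258). For the trio the log2 fold changes were 1.16, 0.86 and 0.50 (limma adjusted p = 0.298, 0.413 and 0.663).

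The other 15 members averaged 0.177 to 103 CPM by group and did not pass in any comparison in the limma model on log2(CPM + 1). Against control, log2 fold changes ran from -1.37 to 2.15 in isoproterenol ventricles (10 above 0, 5 below 0; limma adjusted p from 0.0595 to 0.951). They ran from -0.87 to 2.19 in restricted ventricles (11 above 0, 4 below 0; 0.0571 to 0.976). Restricted ventricles differed from isoproterenol ventricles by -1.52 to 1.68 (9 above 0, 6 below 0; 0.29 to 0.979).

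Some of them passed in limma fits that changed 1 choice. Under isoproterenol tRF-Met-CAT-017 was higher with a pseudocount of 5 (1.30, limma adjusted p = 0.0496). With only the groups compared in the fit, tRF-Met-CAT-005 (2.15, limma adjusted p = 0.0474) and tRF-Met-CAT-031 (2.12, 0.0479) were higher. With the log2 library total as a covariate, tRF-Met-CAT-054 (-2.20, limma adjusted p = 0.0263) and tRF-Met-CAT-056 (-2.51, 0.00413) were lower. After restriction tRF-Met-CAT-003 was higher than control with a pseudocount of 5 (1.33, limma adjusted p = 0.0234).

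A few of these members, and tRF-Met-CAT-052 from the called ones above, set single libraries apart. tRF-Met-CAT-017 was at 48.3, 85.9, 75.4, 39.6 and 268 CPM in isoproterenol ventricles, with replicate 5 well above the rest, against 32.9 ± 15.9 CPM in control and 44.0 ± 35.1 CPM in restricted ventricles. tRF-Met-CAT-052, tRF-Met-CAT-053, tRF-Met-CAT-054, tRF-Met-CAT-055 and tRF-Met-CAT-056 together, a grouping chosen after the values were seen, had 25, 28, 31, 39 and 45 reads in control replicates 1 to 5. Isoproterenol libraries held 4, 23, 12, 13 and 3 reads of these 5 members, and restricted libraries 26, 27, 24, 19 and 46. Replicates 1 and 5 of the isoproterenol group thus had the fewest, although replicate 5 had more member reads (1009) than any other isoproterenol library. With median-of-ratios scaling tRF-Met-CAT-054 (-2.54), tRF-Met-CAT-056 (-2.51) and tRF-Met-CAT-029 (-2.05) were also lower than control under isoproterenol (limma adjusted p = 0.00602, 0.00597 and 0.0279).

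Of 2 members close to detection in controls, tRF-Met-CAT-005 had 0, 0, 0, 1 and 0 reads in control, 1, 2, 1, 1 and 0 in isoproterenol and 2, 0, 0, 14 and 1 in restricted libraries. The other was tRF-Met-CAT-004, with 0, 1, 0, 1 and 0 reads in control replicates 1 to 5. It had 4, 0, 0, 2 and 15 reads in isoproterenol libraries. Restricted libraries held 1, 0, 3, 4 and 0 reads. Pooled, tRF-Met-CAT-005 had 17 reads after restriction, 14 of them in replicate 4, against 1 in control, a ratio of 32.8 per library total (exact 95% counting interval 5.15 to 1373). tRF-Met-CAT-004 had 21 reads under isoproterenol, 15 of them in replicate 5, against 2 in control, a ratio of 19.3 (4.72 to 170). On log2(CPM + 1) neither passed in limma for these comparisons (adjusted p = 0.0571 and 0.13). tRF-Met-CAT-005 passed for restriction with a pseudocount of 5 (1.19, limma adjusted p = 0.0367) and with only the groups compared in the fit (2.19, 0.0474).

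The table also lists 3 fragments of this anticodon under the class name tiRNA, which denotes longer pieces made by a cut in the anticodon loop. tiRNA-Met-CAT-002 was at 161, 96.6, 163, 31.9 and 123 CPM in control replicates 1 to 5. It was at 152, 242, 349, 167 and 1479 CPM under isoproterenol. In restricted ventricles it was at 232, 67.9, 297, 185 and 157 CPM. Isoproterenol replicate 5 stood above all other libraries, as it did for tRF-Met-CAT-014 and tRF-Met-CAT-017. Of the 3 tiRNAs this 1 passed, and in 1 comparison: it rose under isoproterenol by 1.65 (SE 0.61, limma adjusted p = 0.0224), and was at 0.75 after restriction (limma adjusted p = 0.291). The call for tiRNA-Met-CAT-002 was lost without isoproterenol replicate 5 (1.10, limma adjusted p = 0.0991) or control replicate 4 (1.25, 0.0805), and with median-of-ratios scaling (0.42, 0.594). tiRNA-Met-CAT-001 and tiRNA-Met-CAT-003 did not pass against control in either group (limma adjusted p from 0.342 to 0.996). Between restricted and isoproterenol ventricles none of the 3 passed by limma (adjusted p from 0.425 to 0.825).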

How the data were processed

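Total RNA of left ventricles was pretreated against base modifications and size-selected to inserts of 14 to 40 nt, per the labels' protocols. The submitters' processing notes name cutadapt and edgeR, with neither version nor role. The aligner, tRNA reference and genome build were not stated. The authors deposited CPM per tsRNA and library. Every CPM value (100%) was a whole multiple of 1 read within a tolerance of 0.001 reads, so reads and library totals (106082 to 1128887) were recovered. These totals hold more than the listed tsRNAs. Intervals and limits of 0 reads cover counting error alone, because PCR copies are not separate molecules.

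The test was limma 3.58.1 (R 4.3.3; eBayes with trend, two-sided) on log2(CPM + 1). It ran over the 707 tsRNAs reaching 1 CPM in 5 or more libraries, with all 15 libraries in 1 model and Benjamini-Hochberg adjustment within a comparison; a tsRNA was called changed at an adjusted p under 0.05. A log2 fold change is the fitted difference in mean log2(CPM + 1), not the log2 of a ratio of mean CPM. For low tsRNAs it can be smaller or larger in size than the latter. For isoproterenol versus control, tRF-Met-CAT-005 had 2.15 with a ratio of means of 35.9. In the same comparison tRF-Met-CAT-052 had -1.98 with a ratio of 0.61. The code was tested on simulated data. As alternatives, edgeR 4.0.16 (quasi-likelihood, on 347 tsRNAs left by its filter) and DESeq2 1.42.0 were run on the recovered reads. Over all tsRNAs edgeR called 74 higher and 80 lower for isoproterenol versus control, 0 between restricted and isoproterenol, and 77 higher and 88 lower for restricted versus control. Other alternatives changed the pseudocount, filter, scaling, covariates or libraries. Every pair of replicates differed by more than sampling noise, with a chi-square per degree of freedom of at least 7.52.

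Members named with the value in every library are those changed in any comparison, the 5 most abundant and the 3 with the smallest p between restricted and isoproterenol ventricles; any other member named was chosen after its values were seen. Members and lists were chosen with earlier results of these data known. Members' sequences were not used here.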

Additional observations from a re-analysis of the deposited data

Results flagged for a closer look

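In groups of 5, a library was set aside for a closer look where its gap to the next value exceeded 0.71 of the group's range. Over the 13 members named with all values, the 3 tiRNAs and the members' share of listed reads, 51 groups were looked at. In these, 6 libraries stood apart. The cut-off stands for about 1 in 20 groups by chance only if values are normally distributed. CPM values near 0 reads are not, so that rate is no reference for the 6. Isoproterenol replicate 5 accounts for 3 of them: tRF-Met-CAT-014 at 54.4 CPM (the others 0 to 7.81 CPM), tiRNA-Met-CAT-001 at 148 CPM (0 to 23.4 CPM) and tiRNA-Met-CAT-002 at 1479 CPM (152 to 349 CPM). The remaining 3 rest on 1 read each above 0 in the other libraries of the group: tRF-Met-CAT-011 at 3.71 CPM in control replicate 3 and at 2.52 CPM in restricted replicate 2, and tiRNA-Met-CAT-003 at 4.50 CPM in restricted replicate 3. Such a lone read always meets the rule.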

How the results depend on the processing

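Of the log2 fold changes of the 13 named members under all alternatives, 870 kept direction and side of the threshold. Of the rest, 72 lost a call, 17 gained one and 37 changed sign. The cause was not tested, except that edgeR's filter left 9 members to test. The 870 include alternatives that could not change direction: other filters, the replicate block, only the groups compared in the fit, and a library of the third group left out. A missing DESeq2 adjusted p was counted as no call. Against control, edgeR called 2 members for isoproterenol and 3 for restriction. DESeq2 called 1 higher and 6 lower for isoproterenol, where 114 of all 712 tsRNAs were higher and 134 lower. After restriction DESeq2 called 0 higher and 6 lower, where 108 of all 712 were higher and 161 lower. Its lower calls there include tRF-Met-CAT-002 (-1.87, DESeq2 adjusted p = 0.0292), which no limma fit called. For restriction, median-of-ratios scaling and scaling to the listed tsRNAs called 4 each. Between restricted and isoproterenol ventricles the covariate called 2 and DESeq2 1. Leaving out 1 library gave 3 to 10 calls for isoproterenol, 0 in each fit between the treated groups, and 6 to 8 for restriction. The 3 and the 6 came without control replicate 4. Of all 707 tsRNAs, 189 were then higher and 84 lower for isoproterenol, and 282 and 69 for restriction. The 10 came without isoproterenol replicate 5, where 299 of all 707 were higher and 90 lower. The control share of 0.496% was 0.143% of the library total and 0.809% without the most abundant tsRNA; leaving out 1 library moved it from 0.440% to 0.580%.

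Sign changes for isoproterenol versus control were those of tRF-Met-CAT-016 (-0.66 by median of ratios, -0.51 by listed tsRNAs, -0.50 by edgeR, -0.36 by DESeq2) and tRF-Met-CAT-035 (-0.19, -0.038, -0.24 and -0.15 in that order, -0.025 with the covariate). For restricted versus isoproterenol, tRF-Met-CAT-078 turned to -0.061 by median of ratios and -0.24 by DESeq2. For restricted versus control, tRF-Met-CAT-016 turned to -1.53, -0.70, -1.47 and -1.47 in the same order and to -0.35 with the covariate. tRF-Met-CAT-052 turned to -1.12, -0.31, -1.16 and -1.13, and to -0.66 with the covariate. tRF-Met-CAT-009 turned to -0.64 by median of ratios, -0.57 by edgeR and -0.55 by DESeq2, and tRF-Met-CAT-011 to 0.012 with the covariate. With 1 library left out, restricted versus control ran from -0.45 to 0.36 for tRF-Met-CAT-011 and from -0.23 to 0.45 for tRF-Met-CAT-016, and restricted versus isoproterenol from -0.92 to 0.27 for tRF-Met-CAT-012 and from -1.35 to 0.10 for tRF-Met-CAT-014.

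Replicate numbers were not used to pair the rats in the main model. Of 15 correlations between same-numbered libraries 1 was over 0.1 (range -0.119 to 0.253). Such correlations cannot settle how the rats were handled. With the replicate block, 8 members were called for isoproterenol against control, 8 for restriction against control and 0 between the treated groups. Of all 707 tsRNAs, 255 were then higher and 90 lower for isoproterenol, and 343 higher and 78 lower for restriction. The block added tRF-Met-CAT-014 (-1.98, limma adjusted p = 0.0499) and tRF-Met-CAT-031 (2.12, 0.0475) for isoproterenol, and tRF-Met-CAT-005 (2.19, 0.0448) for restriction, and lost tRF-Met-CAT-078 for isoproterenol (0.0577). Depth limits the rarer members, since 1 read was worth up to 9.43 CPM.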
